A study of Mus musculus with 49 samples.

Results

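A set of 10 genes whose products write, copy, protect or remove 5-methylcytosine was described in single late 2-cell mouse embryos, out of 54838 gene rows in the count tables. The genes were chosen by symbol in the GENCODE annotation of GRCm38: the DNA methyltransferases *Dnmt1*, *Dnmt3a* and *Dnmt3b*, the methyltransferase cofactor *Dnmt3l*, the dioxygenases *Tet1*, *Tet2* and *Tet3*, and the partners *Uhrf1*, *Dppa3* and *Tdg*. All 10 had a row in every embryo.

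The embryos came from F1(C57BL/6JxCBA/H) females crossed with F1 males. They went through Trim-Away, in which an antibody is injected into the zygote and its target protein is degraded once TRIM21 is supplied. TBP LOF embryos (n = 9) received an antibody against TBP, the TATA-box binding protein of the basal transcription machinery, and their CONTROL embryos received mouse IgG (n = 10). FOXJ3 LOF embryos (n = 17) received an antibody against the forkhead factor FOXJ3, and their CONTROL embryos received rabbit IgG (n = 13); these embryos were processed in 2 batches. Every embryo, CONTROL embryos included, was injected a second time after 4 h with mCherry-Trim21 mRNA and was collected at 48 h post-hCG. The TBP embryos came from 3 biological replicates and the FOXJ3 experiment from several independent collections too, but the labels do not tie single embryos of any group to a collection, so embryos of 1 collection may vary together and the p-values measure the spread between embryos only. In all, 2 libraries, 1 mouse IgG CONTROL and 1 FOXJ3 LOF, had fewer than 500000 reads and were left out, which left 9 against 9 and 16 against 13 embryos with 1103569 to 5434808 reads each.

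DNA methylation in mammals is set by DNMT3A and DNMT3B, with DNMT3L as a catalytically inactive helper, and is copied after replication by DNMT1, which UHRF1 brings to hemimethylated DNA. The TET enzymes oxidise 5-methylcytosine, and the glycosylase TDG excises the later oxidation products so that base excision repair can restore an unmodified cytosine. In the mouse zygote the paternal genome is oxidised by maternal TET3, while DPPA3 (also known as STELLA or PGC7) shields the maternal genome and keeps UHRF1 in check, and methylation then falls passively over the cleavage divisions. Several of these messages are stocked in the oocyte, so that their level in the late 2-cell embryo holds maternal as well as embryonic RNA, which the count tables do not separate.

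Because TBP binds the TATA box of core promoters, promoters of the 2 genes on which the results turn are printed here, 2 of the 3 entries of *Dnmt1* and the 1 of *Tet3*. They are taken from RefSeq (GRCm38.p6), run 5′ to 3′ on the strand of the gene over 300 bases, most of them before the start, and carry the TATA core TATAAA and the GC box GGGCGG, on either strand, in capitals. The first is an inner start of *Dnmt1* (chr9:20952574-20952873, minus strand), the second its outermost start (chr9:20959839-20960138, minus strand) and the third the start of *Tet3* (chr6:83441629-83441928, minus strand).
Dnmt1 inner start: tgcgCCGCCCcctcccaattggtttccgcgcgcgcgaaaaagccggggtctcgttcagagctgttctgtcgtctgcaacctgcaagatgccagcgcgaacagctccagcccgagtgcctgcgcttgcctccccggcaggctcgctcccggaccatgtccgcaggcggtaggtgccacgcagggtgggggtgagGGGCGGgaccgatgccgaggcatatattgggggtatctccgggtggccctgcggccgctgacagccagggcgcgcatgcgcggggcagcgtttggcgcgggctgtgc
Dnmt1 outermost start: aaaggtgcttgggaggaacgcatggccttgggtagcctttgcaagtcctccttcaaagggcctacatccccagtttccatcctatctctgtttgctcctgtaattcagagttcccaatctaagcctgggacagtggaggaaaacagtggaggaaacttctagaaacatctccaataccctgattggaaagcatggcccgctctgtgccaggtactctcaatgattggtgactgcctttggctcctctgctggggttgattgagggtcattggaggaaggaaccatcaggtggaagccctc
Tet3 start: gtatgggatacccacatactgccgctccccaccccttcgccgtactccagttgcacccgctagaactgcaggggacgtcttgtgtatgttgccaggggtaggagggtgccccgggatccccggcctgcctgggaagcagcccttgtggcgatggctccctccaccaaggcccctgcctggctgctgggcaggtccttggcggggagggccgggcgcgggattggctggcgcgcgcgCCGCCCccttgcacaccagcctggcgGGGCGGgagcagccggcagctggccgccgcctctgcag
No TATAAA is in capitals in any of the 3, and the capitals mark GC boxes, of which the outermost *Dnmt1* start has none. Only the exact letters were searched. A near match, such as the tatatt that follows GGGCGG in the inner *Dnmt1* start, is neither marked nor counted. The *Dnmt1* entry that is not printed (chr9:20952930-20953229) holds neither TATAAA nor GGGCGG nor CCAAT, so the inner entry shown is the only 1 of the 3 with a GC box. Of the 16 promoter entries held for 9 of the 10 genes (*Dppa3* had none), 0 carried TATAAA on either strand, against 13.6% of 32851 mouse promoters of the same length, and the count was also 0 on the sense strand 20 to 40 bases before the start, where 1.99% of all promoters had it. GGGCGG stood in 12 of the 16 entries, against 35.7% of all promoters, and CCAAT, searched on both strands, in 6 of 16 against 37.4%. The entries were GC-rich, with a median GC content of 65.5% and 20 CpG dinucleotides in 300 bases, against 52.7% and 7 over all promoters. Missing letters say nothing on whether TBP is bound there, and the gene counts do not tell the starts of a gene apart.

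The label of the embryos was checked first. Of 9 late 2-cell marker genes, 8 could be matched by symbol, and these had reads in every group, with a summed level of 301 to 1415 reads scaled to the library total (CPM) over the 2 groups of the TBP experiment and 353 to 1092 CPM over the 2 of the FOXJ3 experiment. Cumulus and granulosa markers summed to at most 25.8 CPM and sperm markers to at most 8.18 CPM, with *Inhba* and *Fshr* at 0 in all 4 groups. Blastocyst lineage markers summed to at most 126 CPM. Oocyte markers had median sums of 1401 CPM in mouse IgG and 2039 CPM in rabbit IgG CONTROL embryos. The late 2-cell markers had medians of 430 and 710 CPM there, so these sums do not fix the stage by themselves. The mRNA of *Tbp* itself was lower in TBP LOF embryos (log2 fold change -2.14, SE 0.37, adjusted p = 5.26e-06), whereas that of *Foxj3* was not called in FOXJ3 LOF embryos (0.28, SE 0.13, adjusted p = 0.861). Trim-Away degrades protein, so neither mRNA level measures how much protein was lost.

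The genes spanned a very wide range of levels. Per kilobase of exon, *Dppa3* stood far above the rest in all 4 groups, with 2306 ± 465 CPM per kb in mouse IgG CONTROL (SD, n = 9) and 3649 ± 1621 CPM per kb in rabbit IgG CONTROL (SD, n = 13). *Dnmt3l* came next with 10.6 ± 2.09 and 17.6 ± 5.85 CPM per kb, above the next gene by more than the summed SDs in both CONTROL groups. *Uhrf1* (6.25 ± 1.69), *Tet3* (5.71 ± 0.81), *Dnmt3a* (4.74 ± 0.93) and *Dnmt1* (4.71 ± 1.31 CPM per kb in mouse IgG CONTROL) followed without a gap between neighbours beyond their spread, and the 4 also formed an unbroken run in rabbit IgG CONTROL embryos. *Tet1* (2.37 ± 0.80), *Dnmt3b* (0.67 ± 0.32) and *Tet2* (0.14 ± 0.07 CPM per kb) closed the order of the genes with regular reads. Only 5′ reads were counted, so that a long transcript does not by itself collect more of them, and scaling by length lowers the place of *Tet3*, *Tet1*, *Tet2* and *Dnmt3a*, whose exons span 15.5 to 16.9 kb, against that of *Dppa3* with 0.892 kb. The order below *Dppa3*, and the size of its lead, therefore depend on this scaling. Without it, *Dppa3* stood at 2057 CPM in mouse IgG CONTROL embryos. *Tet3* (95.4 CPM) and *Dnmt3a* (79.0 CPM) stood next in that group, ahead of *Tet1* (36.7), *Dnmt1* (34.8), *Dnmt3l* (31.8) and *Uhrf1* (26.6 CPM, means, n = 9).

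*Tdg* was hardly detected. It had 2 reads in 1 of 9 TBP LOF embryos, 0 reads in 9 mouse IgG CONTROL embryos, 11 reads in 3 of 16 FOXJ3 LOF embryos and 3 reads in 1 of 13 rabbit IgG CONTROL embryos. A count of 0 in the 18911478 gene and TE reads of the mouse IgG CONTROL embryos allows up to 0.159 CPM (3 reads, counting error only). Of its transcript windows of 50 bases, 35.5% recur in other genes, most often in the processed pseudogenes *Tdg-ps*, *Gm9855* and *Gm5597*, which together had 1 read in all embryos. In the first 200 bases 33.1% of its windows recur, the highest share of the 10 genes, against 5.48% for *Tet1*. How reads that match both *Tdg* and a copy were counted was not tested, so its low count may miss such reads. *Tdg* did not reach the filter (at least 1 read in 25% of the embryos of an experiment), and 9 of the 10 genes were tested.

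**Figure D1:**
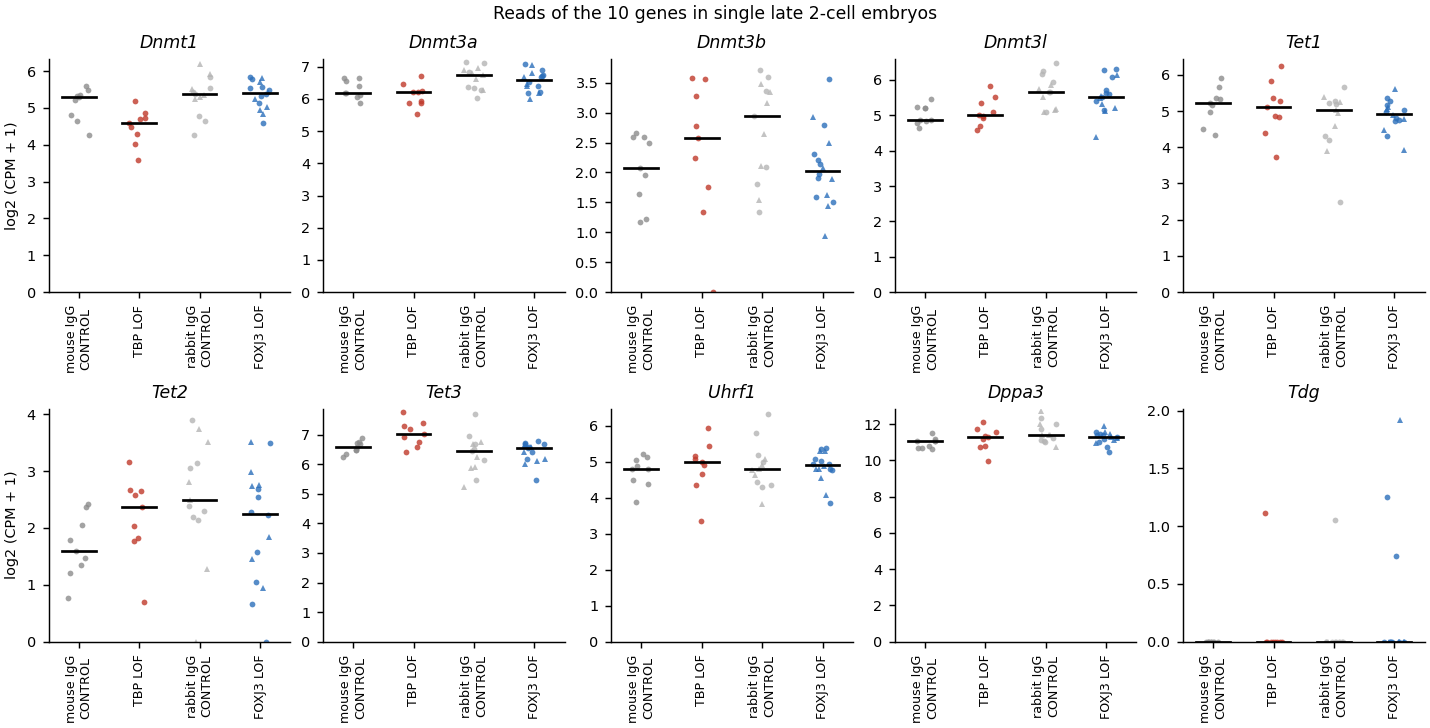
Each panel shows 1 gene, with 1 point per embryo on a log2 (CPM + 1) axis that starts at 0, a black line at the group median, and triangles for batch 2 of the FOXJ3 experiment. Dnmt1 is the gene whose 9 TBP LOF embryos all lie below the mouse IgG CONTROL median, Tet3 lies above it in 8 of 9, and Tdg sits at 0 in nearly all embryos.

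To ask how loss of TBP touches these genes, TBP LOF embryos were compared with mouse IgG CONTROL embryos, with reads scaled by the ERCC RNAs added to each embryo, a scaling that keeps a change in the total RNA of an embryo visible. Upon TBP LOF, 1 of the 9 tested genes passed the test, the maintenance methyltransferase *Dnmt1*, and it was lower. Over all 18447 genes tested, 31.2% were called, 29.8% lower and 1.40% higher, and the median log2 fold change was -0.70. The 9 genes had a median of -0.34, and 7 of them lay above the median gene. Each library is 1 whole embryo labelled late 2-cell, and the files hold no cell counts, so fewer cells and less RNA per cell cannot be told apart from the reads alone.

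Among the genes that copy methylation, *Dnmt1* (chr9:20907209-20959888, minus strand) had 13.9 to 55.5 normalised reads in TBP LOF embryos, with a median of 33.7, against 39.3 to 122 with a median of 72.8 in CONTROL embryos. The ranges overlapped between 39.3 and 55.5 normalised reads, while 7 of 9 TBP LOF embryos lay below the lowest CONTROL embryo and all 9 below the CONTROL median. Its mean fell from 79.3 ± 29.3 to 33.2 ± 13.7 normalised reads (SD, n = 9 each; log2 fold change -1.27, SE 0.33, edgeR quasi-likelihood adjusted p = 0.00181). *Uhrf1* (chr17:56303321-56323486), which recruits DNMT1, had 8.69 to 88.4 normalised reads (median 45.9) against 29.8 to 77.6 (median 61.4), with overlapping groups and a log2 change of -0.34 (SE 0.34, 95% interval -1.01 to 0.33, adjusted p = 0.497). *Dppa3* (chr6:122626410-122630272), the UHRF1 antagonist, had 1272 to 6883 (median 3321) against 3399 to 7381 (median 4135) normalised reads. In all, 6 TBP LOF embryos lay below the lowest CONTROL embryo and the other 3 above the CONTROL median, and the fold change of -0.31 (SE 0.31, adjusted p = 0.496) was not called.

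Of the de novo genes, *Dnmt3a* (chr12:3806007-3914443) came nearest to the threshold. It had 56.5 to 198 normalised reads in TBP LOF embryos (median 106) against 125 to 261 (median 168), and 7 of 9 TBP LOF embryos lay below the lowest CONTROL embryo. Its log2 change of -0.73 (SE 0.29, adjusted p = 0.0523) missed the threshold, and lay close to the median of all genes. The cofactor *Dnmt3l* (chr10:78041947-78063622) had 22.7 to 129 (median 51.9) against 49.2 to 109.8 normalised reads (median 69.9; log2 fold change -0.41, SE 0.32, adjusted p = 0.366). *Dnmt3b* (chr2:153649450-153687730) had few reads, 0 to 16.1 (median 6.73) against 2.71 to 12.1 (median 7.42), and its interval of -1.19 to 1.08 on the log2 scale covers a change of more than 2-fold either way. Of its transcript windows, 9.8% recur in the paralog *Dnmt3c*, beside 15.4% for *Uhrf1* (*Gm5648* and *Gm15953*, 26 reads in all embryos) and 16.5% for *Dppa3* (*Dppa3-ps*, *Gm15620* and *Gm47576*, 37 reads), where 17.2% of the windows in the first 200 bases recur against 0 for *Dnmt3b* and *Uhrf1*. Reads of its antisense partner *Dnmt3bos* (29 in all embryos, against 468 for *Dnmt3b*) cannot be told apart from its own if strand was not used in counting, which the sources used here do not give. The same limit holds for *Tet2* (413 reads, against 61 for the antisense gene *Gm42567*), *Dnmt3l* (4274 against 131 for *Aire*), *Dnmt3a* (8855 against 34 for *Dnmt3aos*), *Tet3* (9382 against 2 for *B230319C09Rik*) and *Tdg* (16 against 13 for *Glt8d2*).

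Among the dioxygenases, *Tet3* (chr6:83362373-83459084, minus strand) had 79.4 to 333 normalised reads in TBP LOF embryos (median 173) against 162.5 to 307 (median 210.9) in CONTROL embryos, with 3 TBP LOF embryos below and 2 above the CONTROL range, and a log2 change of -0.08 (SE 0.29, 95% interval -0.66 to 0.50, adjusted p = 0.879). *Tet1* (chr10:62804570-62908996, minus strand) had 15.4 to 116 (median 45.9) against 42.0 to 130.2 normalised reads (median 84.9; log2 fold change -0.60, SE 0.33, adjusted p = 0.171). *Tet2* (chr3:133463679-133545139, minus strand) had 0.61 to 12.3 (median 6.59) against 1.43 to 9.98 normalised reads (median 4.41), and its interval of -0.99 to 1.41 leaves the direction undetermined at this depth. The reads of *Tdg* (chr10:82629828-82650799) were too few for a fold change.

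ERCC RNAs took 4.29 ± 1.19% of reads upon TBP LOF against 2.76 ± 0.37% in CONTROL embryos (SD, n = 9 each), a gap that enters the ERCC scaling. Under TMM scaling, which compares genes with the bulk of other genes, the median gene moved from -0.70 to 0.13, and 26.1% of genes were called, 12.9% lower and 13.2% higher. *Dnmt1* then stood at -0.38 (log2, SE 0.24, adjusted p = 0.245) and was no longer called, while *Tet3* was called higher (0.74, SE 0.20, adjusted p = 0.00511). Of the 9 genes, 7 changed sign between the scalings, *Dnmt1* and *Tet2* being the exceptions. The places of *Dnmt1* and *Tet3* among all genes were close in both, with 33.003% (ERCC) and 34.3% (TMM) of genes at a lower fold change than *Dnmt1*, and 70.4% and 70.0% at a lower one than *Tet3*, whereas *Dnmt3b*, with few reads, moved from 71.2% to 79.1%. As a share of reads, *Dnmt1* had 11.1 to 35.1 CPM in TBP LOF (median 23.3) against 18.2 to 47.4 CPM in CONTROL embryos (median 38.3), and *Tet3* had 84.1 to 215 CPM (median 128) against 75.1 to 117 CPM (median 95.9), with 6 of 9 TBP LOF embryos above the highest CONTROL embryo.

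**Figure D2:**
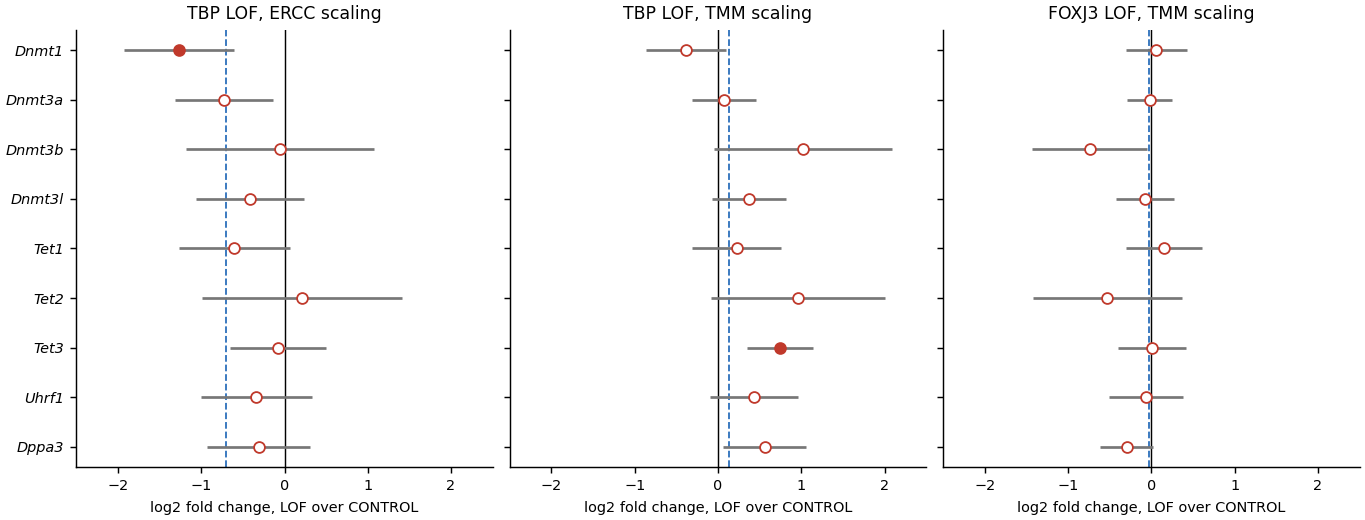
Points are log2 fold changes of LOF over CONTROL embryos with their 95% intervals for the 9 tested genes, filled where the adjusted p is below 0.05, and the dashed line is the median of all genes. Dnmt1 is filled in the first panel (-1.27) and Tet3 in the second (0.74), and no gene is filled in the FOXJ3 panel.

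A ratio of 2 genes within an embryo does not depend on the scaling, and 5 ratios were compared. The ratio of *Tet3* to *Dnmt1*, the oxidising and the copying enzyme, was higher upon TBP LOF. Its log2 value was 1.00 to 2.26 (median 1.48) in mouse IgG CONTROL and 1.44 to 3.23 (median 2.48) in TBP LOF embryos, and 7 of 9 TBP LOF embryos exceeded every CONTROL embryo. The mean rose by 1.09 (SE 0.25) on the log2 scale, or 2.13-fold (exact permutation test, two-sided, p = 0.000782, adjusted p = 0.00782 over 10 tests). How many other pairs of genes shifted by as much was not counted. The ratio of *Uhrf1* to *Dnmt1* was 0.76 (SE 0.30) higher, in 8 of 9 embryos above the CONTROL median, but did not pass the correction (exact permutation p = 0.0232, adjusted p = 0.116). *Dppa3* to *Uhrf1* (0.09, SE 0.41), *Dnmt3b* to *Dnmt3a* (0.44, SE 0.62) and *Tdg* to *Tet3* (-0.12, SE 0.43) differed by less than the spread between embryos, each with an adjusted exact permutation p of 0.908, and the last rests on the 0.5 reads added to each count, since nearly all *Tdg* counts were 0.

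**Figure D3:**
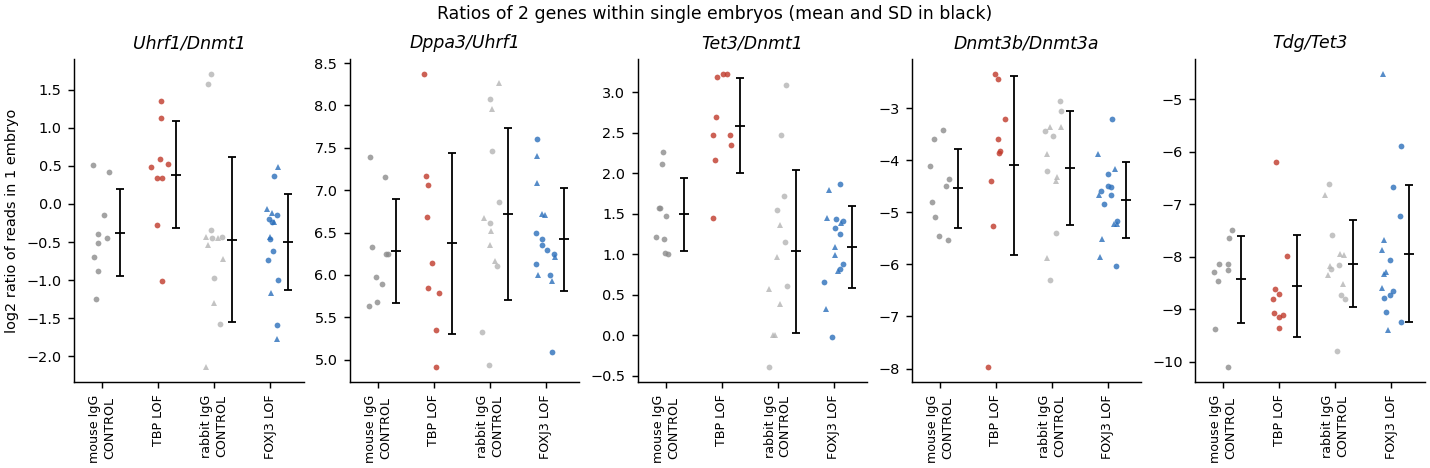
Points are log2 ratios of the reads of 2 genes within 1 embryo, with 0.5 reads added to each, triangles mark batch 2, and the black bars give mean and SD. The Tet3/Dnmt1 values of TBP LOF embryos average 2.58 against 1.49 in mouse IgG CONTROL embryos, while the FOXJ3 LOF and rabbit IgG CONTROL embryos average 1.09 and 1.04.

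Markers of stage and of maternal RNA took a larger share of reads upon TBP LOF, but their fold changes depended on the scaling. The summed level of 8 oocyte markers was 1924 to 3471 CPM in TBP LOF against 820 to 2393 CPM in CONTROL embryos, and under TMM scaling 5 of the 8 were called higher (among them *Gdf9* and *Bmp15*) and 1 lower (*Zp3*), whereas under ERCC scaling 0 were called higher and 1 lower. The 8 late 2-cell markers summed to 519 to 1415 CPM against 301 to 855 CPM, with 3 called higher under TMM and 1 under ERCC scaling. Among all genes, 13.2% were called higher under TMM and 1.40% under ERCC scaling. Under ERCC scaling the median log2 fold change was 0.08 for the oocyte markers and -0.15 for the late 2-cell markers. Single late 2-cell markers ran from -1.24 to 1.77 there. Reads on the mCherry-Trim21 construct averaged 1269 ± 898 CPM upon TBP LOF against 809 ± 407 CPM in CONTROL embryos (SD, n = 9 each). Their part in the results on *Dnmt1* and *Tet3* was not tested.

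Loss of FOXJ3 was compared with rabbit IgG CONTROL embryos next, with TMM scaling and batch in the model. The mCherry-Trim21 construct averaged 514 ± 413 CPM in FOXJ3 LOF (SD, n = 16) against 1136 ± 888 CPM in CONTROL embryos (SD, n = 13). What this difference means for the loss of FOXJ3 protein was not tested. None of the 9 genes was called by edgeR or by DESeq2. Over all 18626 genes tested, edgeR called 0.0107% (2 genes) and DESeq2 called 4 genes, and 1 of the 9 had an unadjusted edgeR p under 0.05, as did 1059 of the 18626 genes. That gene was *Dnmt3b*, with 2.09 to 20.7 normalised reads in FOXJ3 LOF (median 6.84) against 2.60 to 22.9 in CONTROL embryos (median 13.7). In all, 15 of 16 FOXJ3 LOF embryos lay below the CONTROL median, but all but 1 lay within the CONTROL range, and the log2 change of -0.74 (SE 0.34, 95% interval -1.43 to -0.05) had an adjusted p of 0.861. The medians were 7.07 against 13.7 in batch 1 and 6.56 against 13.2 in batch 2.

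For the other genes, the intervals limit the size of a change upon FOXJ3 LOF. *Dnmt1* had 49.9 to 123 normalised reads (median 87.9) against 37.8 to 145 (median 83.5; log2 fold change 0.06, 95% interval -0.30 to 0.42), and *Dnmt3a* had 142 to 279 (median 192) against 139.5 to 260.0 (median 189; -0.02, interval -0.29 to 0.25). *Tet3* had 101 to 244 (median 184) against 66.9 to 488 (median 146; 0.01, interval -0.41 to 0.42), and the highest CONTROL embryo set its wide spread. *Uhrf1* (-0.06, interval -0.51 to 0.38), *Dnmt3l* (-0.08, interval -0.43 to 0.27) and *Tet1* (0.15, interval -0.31 to 0.60) had intervals of like width. *Dppa3* had 2883 to 6478 (median 5191) against 4082 to 12337 normalised reads (median 5419), with a log2 change of -0.29 (SE 0.16, adjusted p = 0.895), and *Tet2*, at 0 to 22.4 against 0 to 28.9 reads, had an interval of -1.42 to 0.36. No gene was called for a difference between the batches in its response (9 tested, adjusted p of 0.697 or more for the interaction). The estimates ran from -0.57 (*Dnmt1*, SE 0.35) to 0.59 (*Tet2*, SE 0.89) on the log2 scale, so such differences are not excluded. The ratio of *Tet3* to *Dnmt1* was 0.05 (SE 0.31) higher in FOXJ3 LOF embryos (permutation test within batches, adjusted p = 0.908), and the other 4 ratios had adjusted permutation p of 0.278 or more. Whether the ratios responded differently to TBP LOF and FOXJ3 LOF was not tested.

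The TBP and the FOXJ3 effects were then set against each other in 1 model of all 47 embryos with TMM scaling, in which 22.1% of 18759 genes differed. Of the 9 genes, 2 did, a share near that of all genes. *Dnmt3b* had a difference of 1.77 (SE 0.60, adjusted p = 0.0268) and *Dppa3* one of 0.86 (SE 0.27, adjusted p = 0.0170), both toward relatively higher levels upon TBP LOF. *Tet3* had a difference of 0.75 (SE 0.30, adjusted p = 0.0628) and *Dnmt1* one of -0.43 (SE 0.28, adjusted p = 0.285). With ERCC scaling *Dnmt3b* fell to 0.47 (adjusted p = 0.653), *Dppa3* turned to -0.24 (adjusted p = 0.696) and *Dnmt1* became the single gene past the threshold, at -1.51 (adjusted p = 0.00532), so that no gene passed under both. With the FOXJ3 embryos of 1 batch at a time, *Dnmt3b* and *Dppa3* kept their direction but did not pass the threshold (adjusted p = 0.110 and 0.0638 with batch 1, 0.110 and 0.147 with batch 2), while *Tet3* passed with batch 1 (0.92, adjusted p = 0.0461). Without the filter on low counts 0 of the 9 passed in edgeR, and DESeq2 called 4 of the 9, beside 2165 genes lower and 2585 higher of all 18759.

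Finally, the CONTROL groups were compared, to see the levels without a targeted protein. None of the 9 genes was called by edgeR or DESeq2 (edgeR called 0.223% of 18820 genes, 0.0691% lower and 0.154% higher), and 4 had an unadjusted edgeR p under 0.05, as did 1959 of the 18820 genes; DESeq2 gave no adjusted p for *Tet2*. *Tet1* was 0.56 (SE 0.26, adjusted p = 0.449) higher on the log2 scale in mouse IgG embryos, and *Dnmt3l* (-0.54, SE 0.22, adjusted p = 0.317), *Tet2* (-1.15, SE 0.51, adjusted p = 0.405) and *Dppa3* (-0.43, SE 0.21, adjusted p = 0.462) were lower. The antibody and the experiment differ together between these groups and cannot be told apart.

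Across embryos, the 9 regularly read genes and *Tdg* were compared in pairs. After centring log2 (CPM + 1) within group and batch, the 45 pairs of genes had Pearson correlations over 47 embryos of -0.38 (*Tet3* with *Dppa3*) to 0.42 (*Tet3* with *Uhrf1*), as a description of values that share depth and library. Higher values were found with other genes among 4785 genes of at least 20 CPM. *Dppa3* was most like *Ccnb1* (r = 0.80), *Eif5a* (0.79) and *Nedd8* (0.77), *Uhrf1* most like *Gtf2a1* (0.73), *Katnbl1* (0.67) and *Btbd10* (0.65), and *Tet3* most like *Trim75* (0.73), *Tnks* (0.73) and *Atxn2l* (0.72). *Tet1* came closest to *Usp36* (0.74), *Slc35e2* (0.72) and *Rps24* (0.70), *Dnmt1* to *Morc3* (0.68), *Cip2a* (0.64) and *Tex11* (0.63), *Dnmt3a* to *Mapk9* (0.67), *Anapc11* (0.64) and *Pole4* (0.63), and *Dnmt3l* to *Ttc9c* (0.66), *Usp53* (0.65) and *Tent5b* (0.65). These are the highest of 4785 correlations for each gene.

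The wider pathway was followed through 8 lists of 76 genes, of which 73 were tested. Upon TBP LOF, 32 of the 73 were called lower and 0 higher with ERCC scaling, or 14 lower and 7 higher with TMM scaling, beside the shares of all genes given above. The median log2 fold change was -0.93 against -0.70 over all genes, and the 9 tested enzymes and partners had a median of -0.34. In FOXJ3 LOF embryos 0 of the 73 were called by edgeR or DESeq2, and 5 had an unadjusted edgeR p under 0.05, beside 1059 of all 18626 genes.

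Among 8 maintenance partners, 4 were called lower with ERCC scaling, beside 29.8% of all genes. With TMM scaling 1 was called lower and 2 higher, beside 12.9% and 13.2% of all genes. No list was tested as a set. *Pcna*, the replication clamp that holds DNMT1 at the fork, fell from 180.3 to 528 normalised reads in CONTROL embryos (median 323) to 43.9 to 297 (median 102; log2 fold change -1.43, SE 0.32, adjusted p = 2.73e-04) and was also called lower with TMM (-0.66, adjusted p = 0.0244). The remodeler *Hells* (-1.29, adjusted p = 0.00175) and the deubiquitinase *Usp7* (-1.01, adjusted p = 0.00509) were called with ERCC but not with TMM scaling. Under TMM scaling the ligase *Lig1* (1.81) and *Cdca7l* (1.37), which were not called with ERCC scaling, were called higher.

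Of 13 genes of methylation protection, imprints and chromatin, 8 were lower and 0 higher with ERCC scaling, and 2 lower and 2 higher with TMM scaling (median log2 fold change -1.16 and -0.33). Of all genes, 29.8% were lower with ERCC scaling, and 12.9% lower and 13.2% higher with TMM scaling. *Dppa2* and *Dppa4*, partner proteins that guard developmental promoters against methylation and act in genome activation, had the smallest p-values of the list. *Dppa4* had 25.6 to 168 normalised reads in TBP LOF (median 116) against 229 to 732 (median 504), and *Dppa2* had 21.2 to 199 (median 53.7) against 214 to 671 (median 409). The log2 fold changes were -2.20 (SE 0.33, adjusted p = 4.89e-07) and -2.32 (SE 0.35, adjusted p = 5.28e-07), or -1.27 and -1.55 with TMM, both still called. The corepressor *Trim28*, which KRAB zinc finger proteins bring to imprinted loci, was lower with ERCC but not called with TMM scaling (-1.29, SE 0.32, adjusted p = 0.00107). The 2 called higher with TMM scaling were *Nsd1*, a histone H3 lysine methyltransferase (0.93, adjusted p = 0.00129), and *Nlrp14* (0.82, adjusted p = 0.00651), which stood at 0.15 and 0.05 with ERCC scaling.

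Of 15 tested genes of base excision repair and the *Gadd45* family, other DNA glycosylases included, 8 were lower with ERCC scaling, led by *Parp1*, the strand-break sensor, at 13.8 to 54.9 normalised reads (median 23.2) against 93.1 to 304 (median 147; log2 fold change -2.65, SE 0.34, adjusted p = 1.98e-08). *Apex1*, the main abasic-site endonuclease, had 9.83 to 104 (median 20.3) against 95.7 to 448 normalised reads (median 145; -2.33, SE 0.38, adjusted p = 2.22e-06), and the uracil glycosylase *Ung* was at -1.50 (SE 0.31, adjusted p = 1.35e-04). These 3 were also the genes of the list called lower with TMM scaling (-1.75, -1.56 and -0.69). The shares of all genes called lower were 29.8% with ERCC and 12.9% with TMM scaling.

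Among the cytidine deaminases, *Apobec3* had reads in 3 of 9 TBP LOF and 8 of 9 CONTROL embryos (log2 fold change -2.03, SE 0.78, adjusted p = 0.0398, not called with TMM scaling).

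Of the 16 genes of methyl donor metabolism, 9 were lower with ERCC and 7 with TMM scaling, beside 29.8% and 12.9% of all genes. *Mtrr*, which reactivates methionine synthase, had 0.73 to 28.6 normalised reads (median 7.96) against 50.6 to 171 (median 80.9; -2.98, SE 0.40, adjusted p = 4.50e-08). *Bhmt*, which remethylates homocysteine from betaine, had 0 to 4.59 (median 2.41) against 2.71 to 179 (median 24.3), with overlap at the edge (-4.28, SE 0.63, adjusted p = 3.17e-07). *Tyms*, thymidylate synthase, had 1.15 to 39.8 (median 13.5) against 43.8 to 137 (median 98.7; -2.58, SE 0.40, adjusted p = 9.34e-07). With TMM scaling the mitochondrial hydroxymethyltransferase *Shmt2* was called higher (1.30).

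Among 8 tested methyl-CpG readers, *Mbd3*, a NuRD subunit, was the 1 called lower with ERCC scaling, beside 29.8% of all genes (-1.69, SE 0.39, adjusted p = 4.36e-04, not called with TMM scaling). With TMM scaling 0 readers were lower and 1 was higher, *Mbd5* (1.32, adjusted p = 1.08e-04), beside 12.9% and 13.2% of all genes. Of 7 tested TET cofactors and regulators, 0 were called by edgeR with ERCC scaling, where 1 had an unadjusted p under 0.05 and 1 passed in DESeq2 (lower), and their fold changes ran from -0.74 (*Dcaf1*) to 1.09 (*Cxxc5*). With TMM scaling 1 of the 7 was called higher, the ubiquitin ligase adaptor *Ddb1* (0.72, adjusted p = 0.0158), and the median was 0.52. The further methyltransferase relatives *Dnmt3c* (-1.93) and *Trdmt1* (-0.78) were not called.

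**Figure D4:**
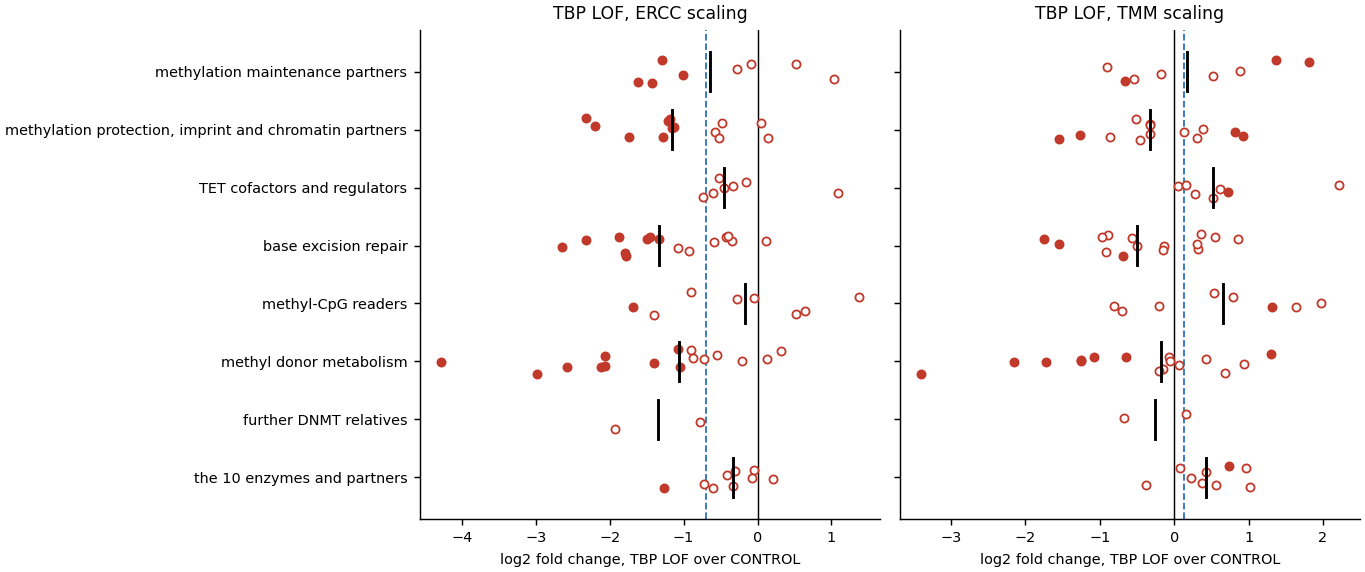
Each point is a tested gene of 1 of 7 lists or of the 10 genes (cytidine deaminases are not drawn), at its log2 fold change of TBP LOF over CONTROL embryos under ERCC (left) or TMM scaling (right), filled where the adjusted p is below 0.05. Black bars are list medians, and the dashed line is the median of all genes, at -0.70 on the left and 0.13 on the right.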

How the data were processed

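Single late 2-cell embryos were profiled with Smart-seq+5′, a full-length polyA protocol in which only the 5′ reads were counted. The deposited tables hold estimated counts per gene, TE family and ERCC RNA, made by the authors with STAR 2.7.11a on GRCm38 with the mCherry-Trim21 construct added and TEcount, and no normalisation; for the TBP experiment a table of TE insertions was deposited too, whose gene rows differed in 0 embryos. Estimated counts were cut to whole numbers by dropping any fraction. Columns of other samples numbered 0.

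Embryos with at least 500000 reads, 1000 genes, at most 10% mitochondrial and 15% ERCC reads were kept. Features with at least 1 read in 25% of the embryos of a comparison were tested with the quasi-likelihood test of edgeR 4.0.16 (R 4.3.3), p-values adjusted by Benjamini-Hochberg over all features (genes and TE families), threshold 0.05. The TBP experiment was scaled by 42 ERCC RNAs, the others by TMM, and batch was a term for FOXJ3. Ratios within embryos, with 0.5 reads added, were tested by two-sided exact permutation (TBP) or by 100000 permutations within batches (FOXJ3). The fits were tested on simulated data. Depth was 1103569 to 5434808 reads per embryo, and intervals on counts cover counting error only. Alternatives were DESeq2 1.42.0, other scalings and filters, single batches, the mCherry-Trim21 level, a replicate block and leaving out each embryo.

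The genes and lists were chosen with earlier results of these data known. All 10 genes are named throughout; of each list, up to 3 genes past the threshold with the smallest p-values were named, plus *Lig1*, *Cdca7l*, *Nsd1*, *Nlrp14*, *Mbd5*, *Ddb1*, *Shmt2*, *Dcaf1*, *Cxxc5*, *Dnmt3c* and *Trdmt1*, chosen after their values were seen. Likeness used Pearson's r of log2 (CPM + 1) centred within group and batch. The result of 1 listed gene is not reported here.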

Additional observations from a re-analysis of the deposited data

Results flagged for a closer look

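Dixon's test was run on 29 groups of values, and 4 had a value past its limit, where chance gives about 1 in 20 groups. *Dnmt3a* had 260.627 normalised reads in mouse IgG CONTROL embryo 10, far above the others of its group. *Dnmt3l* had 128.623 normalised reads in TBP LOF embryo 8. The 2 *Tdg* reads of the TBP LOF group, 1.4649 after scaling, all lay in embryo 9, which also set the extreme log2 *Tdg* to *Tet3* ratio of -6.18982. Both values rest on the same 2 reads in a group otherwise at 0, where any read passes the limit. The count of 4 can therefore not be set against chance.

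The effects of TBP LOF and FOXJ3 LOF differed for *Dnmt3b* (1.76612 on the log2 scale) and *Dppa3* (0.856425) by the test of the difference in edgeR with TMM scaling. Of all 18759 genes 22.1% differed by that test, a share near that of 2 in 9. With ERCC scaling neither gene differed (0.47 and -0.24), and neither passed with either FOXJ3 batch alone or without the filter.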

How the results depend on the processing

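*Dnmt1* was lower upon TBP LOF under every alternative run, and was past the threshold in all 18 fits that left out 1 embryo (-1.39 to -1.17), but not with TMM (-0.38) or DESeq2 size factors (-0.36). Directions of the other genes upon TBP LOF turned with TMM scaling for *Dnmt3a* (0.073), *Dnmt3b* (1.02), *Dnmt3l* (0.37), *Tet1* (0.22), *Tet3* (0.74), *Uhrf1* (0.43) and *Dppa3* (0.56), and with DESeq2 size factors (0.097, 1.06, 0.39, 0.23, 0.77, 0.46 and 0.57). The number of the 9 genes past the threshold was 2 in DESeq2 and with filterByExpr, *Dnmt3a* joining (adjusted p = 0.0191 and 0.0288), and 1 to 2 over the fits without 1 embryo, *Dnmt3a* joining without TBP LOF embryo 1 or 8 and *Tet1* without embryo 10. Those fits also turned *Dnmt3b* (-0.28 to 0.10) and *Tet3* (-0.19 to 0.028), and moved the uncalled values of *Uhrf1* (-0.51 to -0.19), *Dppa3* (-0.48 to -0.20), *Dnmt3l* (-0.67 to -0.31) and *Tet2* (0.0033 to 0.37).

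In FOXJ3 LOF embryos, where 0 of the 9 genes passed under any alternative run, the genes past the threshold numbered 4 in DESeq2 and without the filter, 1 with filterByExpr, 0 in either batch alone, 0 with the mCherry-Trim21 level and 0 with the replicate block, and 1 to 4 over the fits without 1 embryo. Small effects turned with ERCC scaling (*Dnmt3a* 0.13, *Dnmt3l* 0.064, *Uhrf1* 0.080), in batch 1 (*Dnmt3a* 0.045, *Tet3* -0.24) and in batch 2 (*Dnmt1* -0.26, *Dnmt3l* 0.00057, *Uhrf1* 0.26), with the mCherry-Trim21 level (*Dnmt3a* 0.0038) and with the replicate block (*Uhrf1* 0.12). *Tet3* turned with DESeq2 size factors (-0.053), in DESeq2 (-0.053), without the filter (-0.016), with filterByExpr (-0.032) and with all 30 embryos (-0.011). Without 1 embryo the ranges crossed 0 for *Dnmt1* (-0.0073 to 0.13), *Dnmt3a* (-0.066 to 0.016), *Dnmt3l* (-0.16 to 0.027), *Tet3* (-0.078 to 0.21) and *Uhrf1* (-0.14 to 0.17). The *Tet3* to *Dnmt1* ratio turned in batch 1 (-0.39) and that of *Uhrf1* to *Dnmt1* in batch 2 (0.45).

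For the difference between experiments, 1 gene passed with ERCC scaling, 4 in DESeq2, 0 without the filter, 1 with FOXJ3 batch 1 and 0 with batch 2, where 1325 genes passed in all. ERCC scaling turned *Dnmt3a* (-0.85), *Dnmt3l* (-0.47), *Tet1* (-0.95), *Tet3* (-0.19), *Uhrf1* (-0.41) and *Dppa3* (-0.24), no filter turned *Dnmt3a* (-0.046) and *Tet1* (-0.050), and batch 1 turned *Dnmt3a* (-0.035) and *Tet1* (-0.012). Between CONTROL groups, 207 genes passed in DESeq2, 71 without the filter, 0 with rabbit IgG batch 1 and 185 with batch 2, and *Dnmt1* (0.13), *Dnmt3a* (0.038) and *Uhrf1* (0.083) turned with ERCC scaling, *Dnmt1* (0.13) and *Tet3* (-0.026) with batch 1 and *Uhrf1* (0.29) with batch 2. The causes were not tested.

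Embryo numbers shared between groups were not used as pairs in the main tests. The deviations of same-numbered embryos correlated at -0.09 to 0.20 over 7 pairs in the TBP and -0.32 to 0.29 over 12 pairs in the FOXJ3 experiment. This does not exclude that same-numbered embryos shared a collection. With the replicate block *Dnmt1* was at -1.12 (adjusted p = 0.00517) upon TBP LOF. *Dnmt3b*, *Tet2* and *Tdg* had few reads, which limits what these libraries can show for them.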
